A study of Camelina sativa with 12 samples.

Results

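Shoots of *Camelina sativa* whose soil had received *P. migulae* 8R6, a root endophyte that makes its own ACC deaminase, were compared with shoots of the *rolD::acdS* line, which makes a bacterial ACC deaminase from a transgene. The comparison covered the 56932 of 89418 genes with at least 0.5 CPM (counts scaled to library size) in at least 3 of the 12 libraries of the series. The contrast used 6 of those libraries, 3 for each group, and each gene is given as *P. migulae* 8R6 minus *rolD::acdS* on the log2 scale. All plants were cultivar DH55 or derived from it, were given NaCl at 15 dS m-1 (192 mM) for 21 days and were 28 days old when the whole shoot was taken, as the labels and the RNA methods give it (the general growth methods name a later start of salt). The first group was wild-type DH55 with the bacterium in the soil. The second was DH55 carrying the *acdS* gene of *Pseudomonas* sp. UW4 behind the *rolD* promoter of *Agrobacterium rhizogenes*, as 1 single-copy line in soil given only the MgSO4 solution. The remaining libraries were the DH55 control with MgSO4 and a *35S::acdS* line, also 3 each. The groups therefore differed in the bacterium, the transgene and the line all together, and these cannot be told apart. No unsalted plants were among the libraries, and the transgene was not among the genes counted.

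ACC is the direct precursor of ethylene, and ACC deaminase cleaves it before ACC oxidase can turn it into the hormone. A bacterium that lives on or in roots draws on ACC that leaves the root, and it also presents the plant with microbial signals. The *rolD* promoter is active mainly in roots. Ethylene acts beside abscisic acid (ABA), jasmonate and salicylate in salt-stressed leaves, through families of transcription factors such as the ethylene response factors (ERF).

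Library totals were 15392642 to 23118510 counts with *P. migulae* 8R6 and 10520627 to 23267552 in the *rolD::acdS* line, where replicates 2 and 3 had 10748399 and 10520627. Correlations of log2(CPM + 0.5) across genes were 0.959 to 0.971 within the *P. migulae* 8R6 libraries, 0.974 to 0.977 within the *rolD::acdS* libraries and 0.952 to 0.975 between the groups. The shoot label was checked against markers. The summed level of 3 green tissue markers (2 LHCB1 genes and PSAD-1) was 113 to 132 CPM with *P. migulae* 8R6, 54.4 to 72.4 CPM in the *rolD::acdS* line and 38.1 to 51.9 CPM in the control. Root markers were low but not absent. The summed level of 4 of them (WOX5, 2 HAK5 genes and root hair specific 6) was 4.18 to 12.5 CPM with *P. migulae* 8R6 and 5.02 to 15.0 CPM in the *rolD::acdS* line, and WOX5, which marks the root quiescent centre, had 0, 1 and 2 counts against 12, 10 and 3. The green tissue markers thus did not overlap between the groups, while the root sums overlapped and root hair specific 6 had a log2 fold change of 0.47, on the other side. WOX5, both HAK5 genes and the 3 green tissue markers come from the *P. migulae* 8R6 list, which the study chose on these libraries. The part of these markers in the differences below was not tested. In whole shoots, fewer cells of a type and less RNA per cell cannot be told apart.

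Few genes were called between shoots with *P. migulae* 8R6 and *rolD::acdS* shoots, and most of those called were lower with the bacterium. A gene was called at an adjusted p of 0.05 or less (edgeR's quasi-likelihood test, Benjamini-Hochberg over all genes tested) with more than a 2-fold difference. By this rule 35 genes were lower with *P. migulae* 8R6 (0.0615% of genes tested) and 8 were higher (0.0141%), together 0.0755%. In all 43 the 3 libraries of one group lay beyond the 3 of the other, as they did in 9.52% of all genes tested on the lower side and 8.56% on the higher side. Log2 fold changes ran from -6.24 to -1.01 among the lower genes and from 1.03 to 3.01 among the higher ones, against a median of -0.001 over all genes tested. Before adjustment, 7142 genes (12.5%) had a p under 0.05, 3518 of them lower (6.18%) and 3624 higher (6.37%).

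These calls sat at the edge of the threshold. The smallest adjusted p was 0.0378, and widening the limit to 0.1 would have taken in 143 genes lower (0.251%) and 80 genes higher (0.141%) with *P. migulae* 8R6. Leaving out *P. migulae* 8R6 replicate 2 or 3, *rolD::acdS* replicate 2, *35S::acdS* replicate 1 or 2, or control replicate 1 left 0 genes called by edgeR's test, with 4599 to 7191 genes under 0.05 before adjustment. Without *P. migulae* 8R6 replicate 1 there were 4 calls, and without control replicate 3 there were 15. The count was 40 without *rolD::acdS* replicate 1 (22 lower, 18 higher), 66 without *rolD::acdS* replicate 3, 73 without *35S::acdS* replicate 3 and 157 without control replicate 2. DESeq2 called 468 genes (279 lower, 0.49%, and 189 higher, 0.332%), 42 of the 43 among them. In each of the 23 other settings the called genes that were tested (all 43, or 39 under the filter of 2 CPM) kept their direction, which non-overlapping libraries fix in the fits with 1 library left out and which is no sign of stability there. In 22 of these settings each had an unadjusted p under 0.05, with 0.00313 as the largest. The genes were chosen for their small p on these same counts, so this is no sign of stability either.

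**Figure D1:**
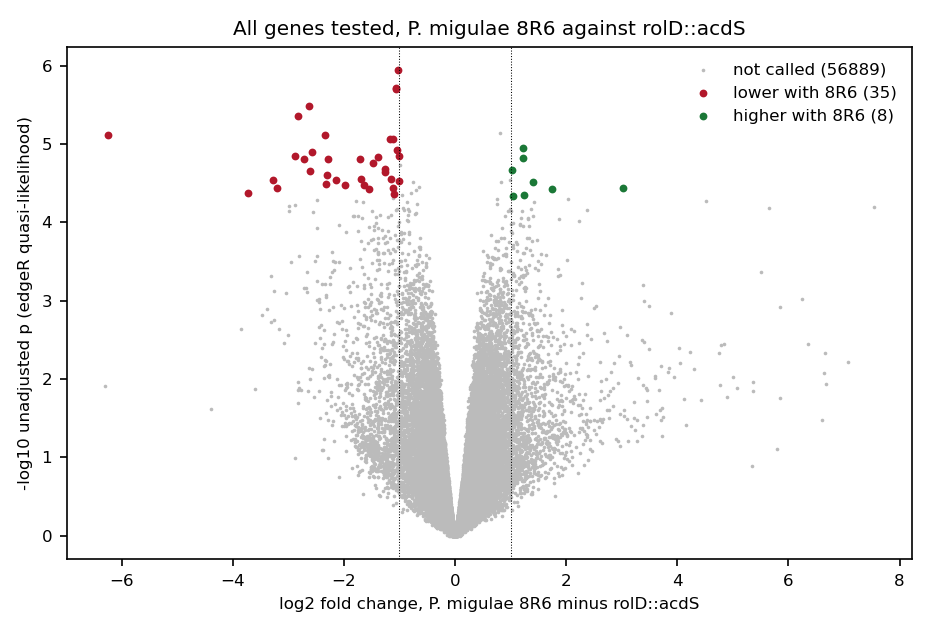
Log2 fold change of P. migulae 8R6 minus rolD::acdS (horizontal axis) against -log10 of the unadjusted p (vertical axis) for the 56932 genes tested, 1 point a gene. Dotted lines mark a 2-fold difference. The 35 genes called lower reach -6.24, and the 8 called higher reach 3.01.

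**Figure D2:**
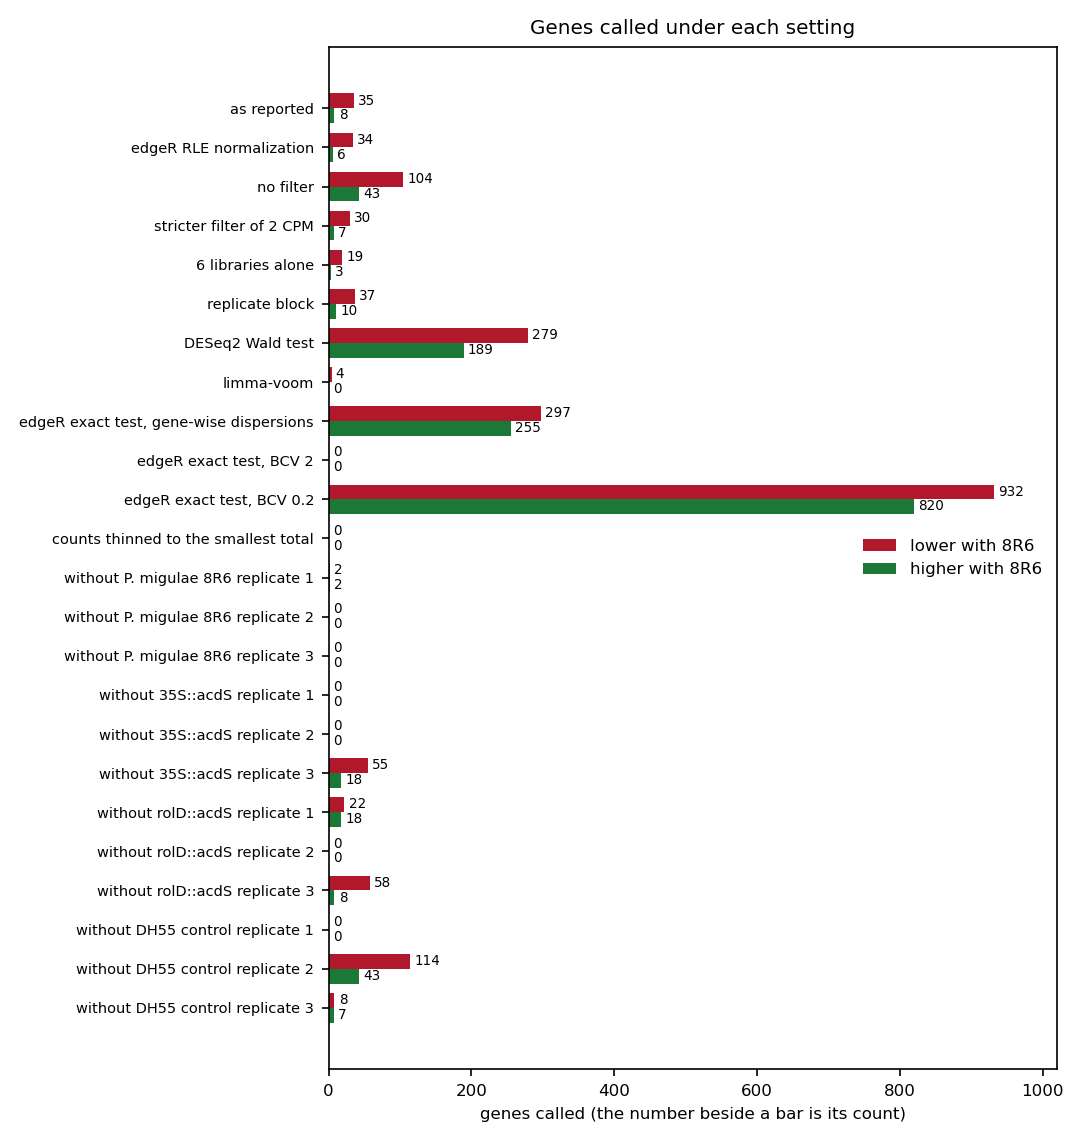
Number of genes called lower (red) and higher (green) with P. migulae 8R6 under the reported setting, 11 alternatives and 12 fits that each leave out 1 library. The counts run from 0 and 0 to 932 and 820, and 6 of the 12 fits with a library left out call 0 genes.

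Names came from the study's supplementary gene lists, which the study drew from these same libraries by comparing each treatment with the control. Of the 1188 listed genes that were tested, 21 were called lower (1.77%) and 4 higher (0.337%), and the other 18 calls (14 lower, 4 higher) have no name here, where the *rolD::acdS* list was read only in part. Being listed is not independent evidence of a difference here, and it tends to fix the direction. The median log2 fold change was -1.14 over the 348 tested genes of the *P. migulae* 8R6 list and 1.16 over the 660 of the *rolD::acdS* list. Counts within gene groups below are therefore to be read against the listed genes as a whole. Of these, 22.6% had an unadjusted p under 0.05 on the lower side and 29.6% on the higher side, 19.7% and 19.6% had libraries that did not overlap, and DESeq2 called 10.6% and 7.15%. Genes listed with the same *Arabidopsis thaliana* ortholog are called homeologues here.

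The named genes with the largest decreases included an RNase, relatives of flowering regulators, a transporter and a pair of transcription factors. RNS1 encodes a secreted ribonuclease that *Arabidopsis thaliana* makes on phosphate shortage, wounding and senescence. Csa04g008480 (RNS1) stood at 4.89, 6.13 and 6.81 CPM with *P. migulae* 8R6 and at 55.0, 52.6 and 18.1 CPM in the *rolD::acdS* line, and at 17.8 to 21.6 CPM in the control. The third *rolD::acdS* library was the lowest of its group but still above every *P. migulae* 8R6 library. The log2 fold change was -2.83 ± 0.37 (SE; adjusted p = 0.0429). Its homeologue Csa09g005240 had 2.53, 4.32 and 5.50 CPM against 34.4, 34.9 and 11.3 CPM, a log2 fold change of -2.72 ± 0.40 (adjusted p = 0.0429). The third homeologue, Csa06g002980, had a log2 fold change of -1.94 ± 0.52 and was not called (adjusted p = 0.159). *C. sativa* carries 3 sub-genomes, and homeologues can share reads, so members of such a set are not separate observations.

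The phosphatidylethanolamine-binding (PEBP) family includes the flowering regulators FT and TFL1, although the role of the member found here is not known from its name. Csa20g001790 had 6.51, 9.29 and 5.79 CPM with *P. migulae* 8R6 and 38.7, 77.6 and 41.2 CPM in the *rolD::acdS* line, with the control between them at 24.5 to 30.5 CPM. It was 7.32-fold higher in the *rolD::acdS* line (log2 fold change -2.87 ± 0.42, adjusted p = 0.0429). Csa13g001570 fell by 2.61 on the log2 scale (adjusted p = 0.0468), and the third member, Csa08g062980, had -2.95 ± 0.60 with an adjusted p of 0.0792. In all 3 the libraries of the groups did not overlap.

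Csa18g022950 encodes a MATE efflux protein, one of a family that moves organic cations, hormones and citrate out of cells. Its levels were 0.814, 0.452 and 0.487 CPM with *P. migulae* 8R6, 4.92, 8.67 and 3.25 CPM in the *rolD::acdS* line and 1.14 to 2.64 CPM in the control (log2 fold change -3.21 ± 0.51, adjusted p = 0.0468). The other listed member, Csa02g045020, had -2.04 ± 0.53 (adjusted p = 0.149). A second transporter family was also represented. Csa06g009140, a nodulin MtN3 (SWEET type) sugar carrier chosen after its values were seen, was lower by -1.54 on the log2 scale, at 3.00 to 3.80 CPM against 8.04 to 12.3 CPM.

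Among regulators, the clearest was RAP2.6, an ERF factor that responds to ABA, jasmonate and salt in *A. thaliana*. Csa03g046520 (RAP2.6) had 15.2, 7.87 and 13.6 CPM with *P. migulae* 8R6, 85.3, 100 and 32.8 CPM in the *rolD::acdS* line and 36.3 to 53.8 CPM in the control. Every *rolD::acdS* library exceeded every *P. migulae* 8R6 library by at least 2-fold, and 1 of the 3 lay under the control. The log2 fold change was -2.57 ± 0.37 (adjusted p = 0.0429), and that of the homeologue Csa17g069360 was -2.49 ± 0.41, just outside the limit (adjusted p = 0.0504). A B3 family factor, Csa12g014370, had low levels throughout, with 0.0429, 0.194 and 0.195 CPM against 0.941, 2.28 and 1.08 CPM. Its control libraries (0.189 to 0.291 CPM) lay near those with *P. migulae* 8R6 (log2 fold change -3.28 ± 0.51, adjusted p = 0.0468).

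Genes with a PB1 domain, which joins proteins into complexes, fell as a pair. Csa07g037510 had 1.11, 1.55 and 1.27 CPM with *P. migulae* 8R6 and 6.72, 13 and 4.63 CPM in the *rolD::acdS* line (log2 fold change -2.63 ± 0.33, adjusted p = 0.0429). Csa16g032240, its homeologue, fell by 2.35 on the log2 scale, from 17.3 to 48.9 CPM in the *rolD::acdS* line to 5.61 to 6.96 CPM (adjusted p = 0.0429). The control libraries of the first lay between the groups, at 2.97 to 4.2 CPM, and those of the second (12.7 to 19.3 CPM) reached into the *rolD::acdS* range.

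Csa02g071910 (CYP94B1), a cytochrome P450 that oxidises and so inactivates the active jasmonate JA-Ile, had 1.54, 1.87 and 2.38 CPM with *P. migulae* 8R6 and 10.8, 12.2 and 5.22 CPM in the *rolD::acdS* line. Here the *rolD::acdS* line resembled the control (5.62 to 12.1 CPM), and *P. migulae* 8R6 was lower, as were the *35S::acdS* libraries (2.92 to 4.85 CPM), whose list also holds the gene (log2 fold change -2.30 ± 0.35, adjusted p = 0.0468). Csa15g038240, of the lipid-transfer and seed albumin superfamily, fell by 2.33 (adjusted p = 0.0468), with 0.857 to 1.48 CPM against 4.63 to 6.07 CPM. Csa13g051020, listed as an unknown protein, fell by 2.29 (adjusted p = 0.0429), with 2.96 to 7.23 CPM against 14.4 to 31.6 CPM. Neither pair of ranges overlapped.

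The other called and named genes had smaller decreases, between -2.14 and -1.11. They were an N-acyltransferase (Csa04g053000), a RING/U-box protein (Csa17g035560), both cold regulated gene 27 members (Csa11g072120 and Csa20g066690), CYP709B2 (Csa05g002180), the calreticulin family member Csa20g009740, ATHB7 (Csa05g002480) and the cutin-forming CYP77A6 (Csa19g014220). ATHB7, a homeodomain factor that ABA and drought induce in *A. thaliana*, shows how tight some of them were. Csa05g002480 (ATHB7) had 33.9, 37.8 and 30.6 CPM against 71.8, 72.2 and 76.7 CPM (log2 fold change -1.11 ± 0.18, adjusted p = 0.0468), and its control libraries (63.3 to 82.8 CPM) lay with the *rolD::acdS* line. Csa20g009740 showed the other arrangement, with 2.91, 2.65 and 3.65 CPM with *P. migulae* 8R6, 2.58 to 3.66 CPM in the control and 8.30, 7.48 and 6.30 CPM in the *rolD::acdS* line (log2 fold change -1.26 ± 0.19, adjusted p = 0.0468). Over all 35 lower genes the median log2 fold change was -1.08 for *P. migulae* 8R6 minus control and 0.618 for *rolD::acdS* minus control. Both values use the same 3 control libraries, and the genes were chosen for the difference between the groups.

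Of the 4 named genes that rose with *P. migulae* 8R6, fumarase 2 changed the most. FUM2 is the cytosolic fumarase, which in *A. thaliana* leaves interconverts malate and the fumarate stored by day. Csa02g041670 (fumarase 2) had 24.4, 44.0 and 44.1 CPM with *P. migulae* 8R6 and 7.19, 3.83 and 2.07 CPM in the *rolD::acdS* line, with 8.78 to 17.2 CPM in the control. The *35S::acdS* libraries were as low as the *rolD::acdS* line, at 1.46 to 6.49 CPM, and all 3 lists hold the gene. The highest *rolD::acdS* library was below the lowest control library, and the lowest *P. migulae* 8R6 library was above the highest control library. The log2 fold change was 3.01 ± 0.48 (adjusted p = 0.0468). Csa17g001430 (BXL2), a beta-xylosidase that trims cell wall xylan and arabinan, had 6.26, 5.10 and 7.45 CPM against 2.61, 1.09 and 1.57 CPM (log2 fold change 1.75 ± 0.28, adjusted p = 0.0468), and its homeologue Csa14g002670 had 1.48 ± 0.34 (adjusted p = 0.114).

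A ribosomal protein L6 gene, Csa02g053330, had 7.54, 5.87 and 4.82 CPM with *P. migulae* 8R6, 6.06 to 6.77 CPM in the control and 1.88, 2.01 and 3.25 CPM in the *rolD::acdS* line (log2 fold change 1.4 ± 0.22, adjusted p = 0.0468). Only the *rolD::acdS* line stood apart there. In Csa11g020380, of the phosphorylase superfamily, the *P. migulae* 8R6 libraries stood apart, with 10.2, 11.5 and 13.6 CPM against 5.20 to 6.46 CPM in the *rolD::acdS* line and 5.15 to 6.57 CPM in the control (log2 fold change 1.03 ± 0.16, adjusted p = 0.0468). The unnamed genes with the largest increases, Csa17g030980 and Csa08g027660, both had a log2 fold change of 1.23.

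**Figure D3:**
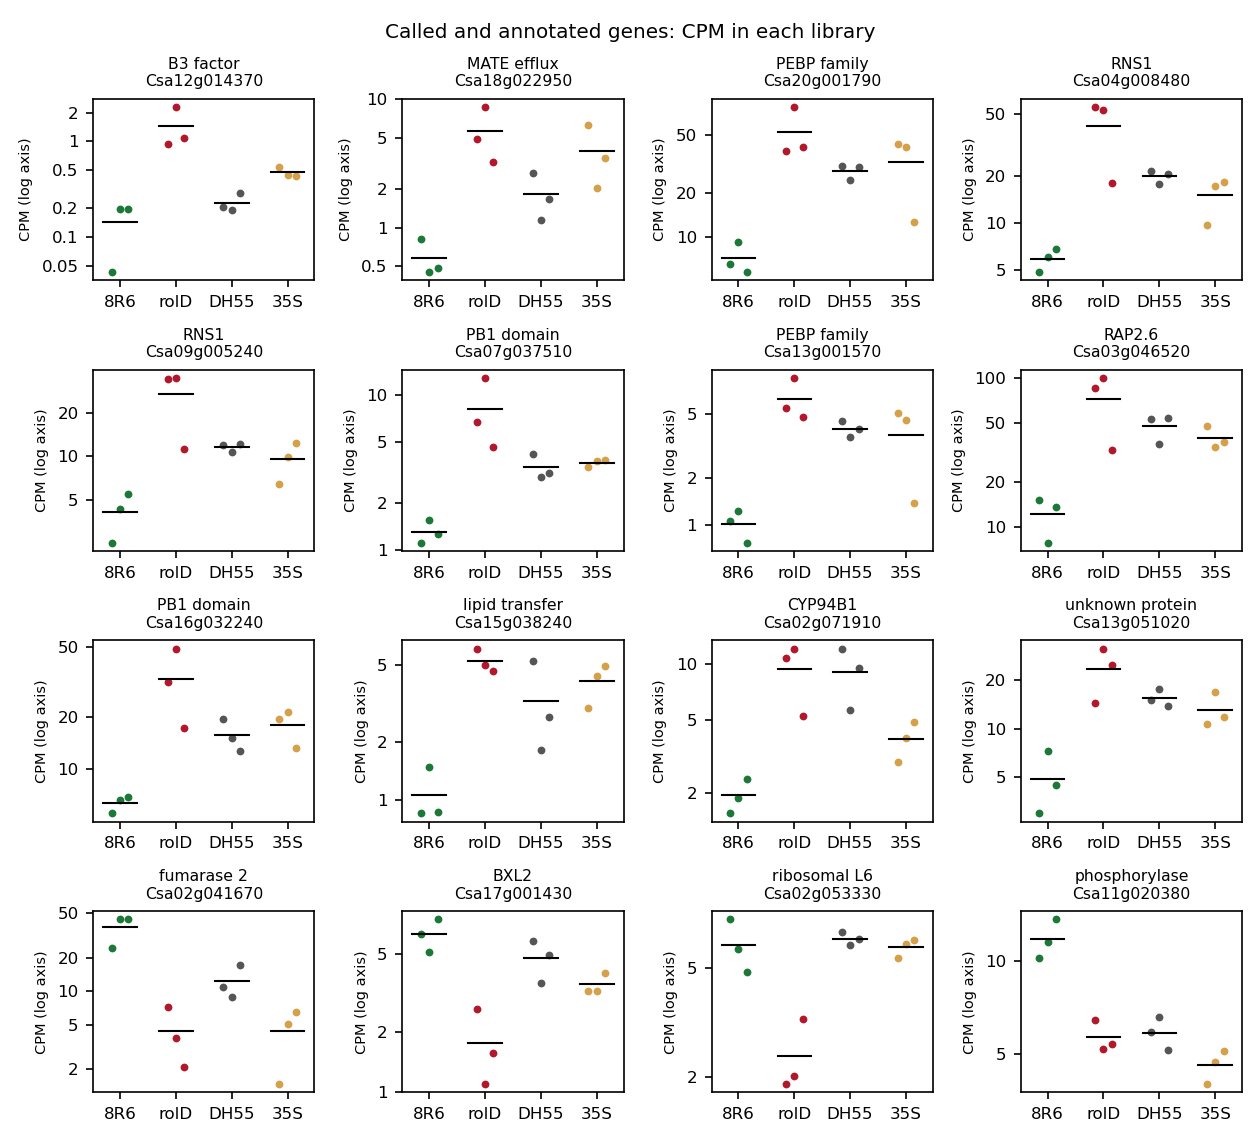
CPM on a log axis in each of the 12 libraries for the 16 called and named genes described in full, 1 panel a gene, with 3 points a group (P. migulae 8R6, rolD::acdS, DH55 control, 35S::acdS) and a bar at the group mean. In each of the 12 lower genes and 4 higher genes the P. migulae 8R6 and rolD::acdS points do not overlap. In fumarase 2 they lie at 24.4 to 44.1 CPM and at 2.07 to 7.19 CPM.

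Some large fold changes rested on few reads. Csa20g056010, not in the parts of the lists that were read, had 0, 0 and 1 counts with *P. migulae* 8R6, 38, 22 and 19 counts in the *rolD::acdS* line and 0 in each library of the control and of the *35S::acdS* line. The ratio of *rolD::acdS* to *P. migulae* 8R6 was 105, with a 95% exact interval for counting error of 18.4 to 4220. Csa11g098720, also unnamed, had 1, 0 and 2 counts against 22, 7 and 6, a ratio of 15.6 (4.91 to 79.1). On the other side, Csa02g016300, a fasciclin-like arabinogalactan protein of the cell surface, had 24, 26 and 28 counts with *P. migulae* 8R6 and 0 in each *rolD::acdS* library. It was at least 19.5-fold higher, taking 3 counts over the group as the floor, and was not called (adjusted p = 0.0504). Csa19g045050, a putative protein, had 14, 13 and 12 counts against 1, 0 and 0, a ratio of 29.2 (4.95 to 1180), and was not called either (adjusted p = 0.0504). The remaining named gene near the limit on that side, Csa11g027930, is listed as an unknown protein and had 1.10 to 1.80 CPM against 0.182 to 0.428 CPM (adjusted p = 0.0504).

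The ethylene genes are those nearest to the enzyme that the groups shared. ACC synthases (ACS) make ACC, and ACC oxidase (ACO) turns it into ethylene. All 7 listed members had higher values with *P. migulae* 8R6, with a median log2 fold change of 1.09 (0.48 without *P. migulae* 8R6 replicate 1 and 2.08 without *rolD::acdS* replicate 1), but none was called and none had libraries that kept apart, and 3 of 7 had an unadjusted p under 0.05 (29.6% of listed genes lay on that side at this level). All 7 stand on the *rolD::acdS* list, which was drawn from the same *rolD::acdS* libraries. Csa12g025860 (ACS7) had 3.77, 1.23 and 0.389 CPM against 0.0855, 0.0912 and 0.394 CPM (log2 fold change 3.45 ± 1.2, adjusted p = 0.263). The third *P. migulae* 8R6 library was as low as the highest *rolD::acdS* library, and it was the lowest of its group in all 7. In Csa10g016710 (ACS7), 55, 4 and 2 counts stood against 3, 0 and 0, a ratio of 15.2 (4.97 to 75.9, counting error only), and the gene was not called (adjusted p = 0.312). Most of those counts came from 1 library, and the log2 fold change of 3.73 was 1.27 without *P. migulae* 8R6 replicate 1 and 6.99 without *rolD::acdS* replicate 1. The other ACS7 member, Csa11g018190, had 2.73 ± 1.07.

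Csa03g001750 (ACS2) had 11.6, 9.04 and 0.633 CPM with *P. migulae* 8R6 and 5.73, 0.912 and 2.46 CPM in the *rolD::acdS* line, a log2 fold change of 1.09 ± 0.79. Its homeologue Csa17g001950 had 0.89 ± 0.75. The ACO4 genes Csa14g006260 and Csa17g008270 had 0.46 ± 0.29 and 0.45 ± 0.33, with 25.4 to 59.3 CPM against 30.6 to 39.6 CPM in the first. The groups overlapped in each of these. In all 7 the control libraries lay above those of the *rolD::acdS* line, for example 9.66 to 24.6 CPM for Csa03g001750.

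Ethylene response factors were split. Of 16 listed members tested, 10 were below 0 and 6 above, with a median of -0.14. The 6 above 0 all come from the *rolD::acdS* list, and all 8 from the *P. migulae* 8R6 list were below 0. The split is thus not independent of how the genes were chosen. Beside RAP2.6, whose Csa03g046520 was the 1 member called, the values ran from -1.69 for ERF17 (Csa03g023030) to 1.97 for ERF2 (Csa18g002590). The repressors ERF4 and ERF11 stayed between -0.39 and -0.06, while the ERF8 genes had -0.67 (Csa14g063540) and -1.47 (Csa17g093440), neither called. The 3 DREB2A genes, drought-responsive relatives of the ERFs and all from the *P. migulae* 8R6 list, had -0.77 to -1.16, and none was called. The lowest p among them was that of Csa20g006670, with 8.53, 5.74 and 3.41 CPM against 13.7, 7.76 and 18.2 CPM (adjusted p = 0.245).

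ABA genes were mostly lower with *P. migulae* 8R6, by amounts that did not pass the test. NCED3 makes the committed step of ABA synthesis. Type 2C phosphatases (PP2C) such as HAI1, HAI2 and PP2CA block ABA signalling and are themselves induced by ABA. The study counts PP2C5 as a positive regulator of that signalling instead. Of 13 members tested, 12 were below 0, with a median of -0.70. None was called, 6 had an unadjusted p under 0.05 on the lower side, and 6 had libraries that did not overlap. The list is largely the *P. migulae* 8R6 list, which holds 12 of the 13, so their direction is not independent of how they were chosen. The median over that whole list was -1.14. Csa15g018820 (NCED3) had 15.9, 11.7 and 8.27 CPM against 41.5, 15.4 and 23.5 CPM (log2 fold change -1.18 ± 0.45, adjusted p = 0.310), and Csa19g021150 (NCED3) had -1.07 ± 0.44.

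Of the phosphatases, the 3 HAI1 genes were at -1.14, -1.15 and -1.08, the 3 HAI2 genes at -0.70, -0.54 and -0.47, ABI2 (Csa02g061490) at -0.61 and PP2CA (Csa15g015150) at -0.15. The third *P. migulae* 8R6 library was the lowest of its group in all 6 HAI1 and HAI2 genes. Csa02g064780 (HAI1) had 47.7, 46.4 and 11.3 CPM against 83.3, 57.5 and 90.6 CPM, and its homeologue Csa11g092890 had 36.3, 30.3 and 8.86 CPM against 63.8, 38 and 65.2 CPM. In PP2CA the groups overlapped, at 89.3 to 108 CPM and 103 to 113 CPM, while the control had 184 to 212 CPM. The PP2C5 pair pointed opposite ways, with 1.21 ± 0.89 for Csa04g054460 and -0.36 ± 0.70 for Csa05g012640. Csa06g054300 (TSPO, a membrane protein that ABA induces briefly) had 3.43, 3.49 and 1.02 CPM against 5.73, 6.2 and 7.68 CPM (-1.30 ± 0.51, adjusted p = 0.320).

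**Figure D4:**
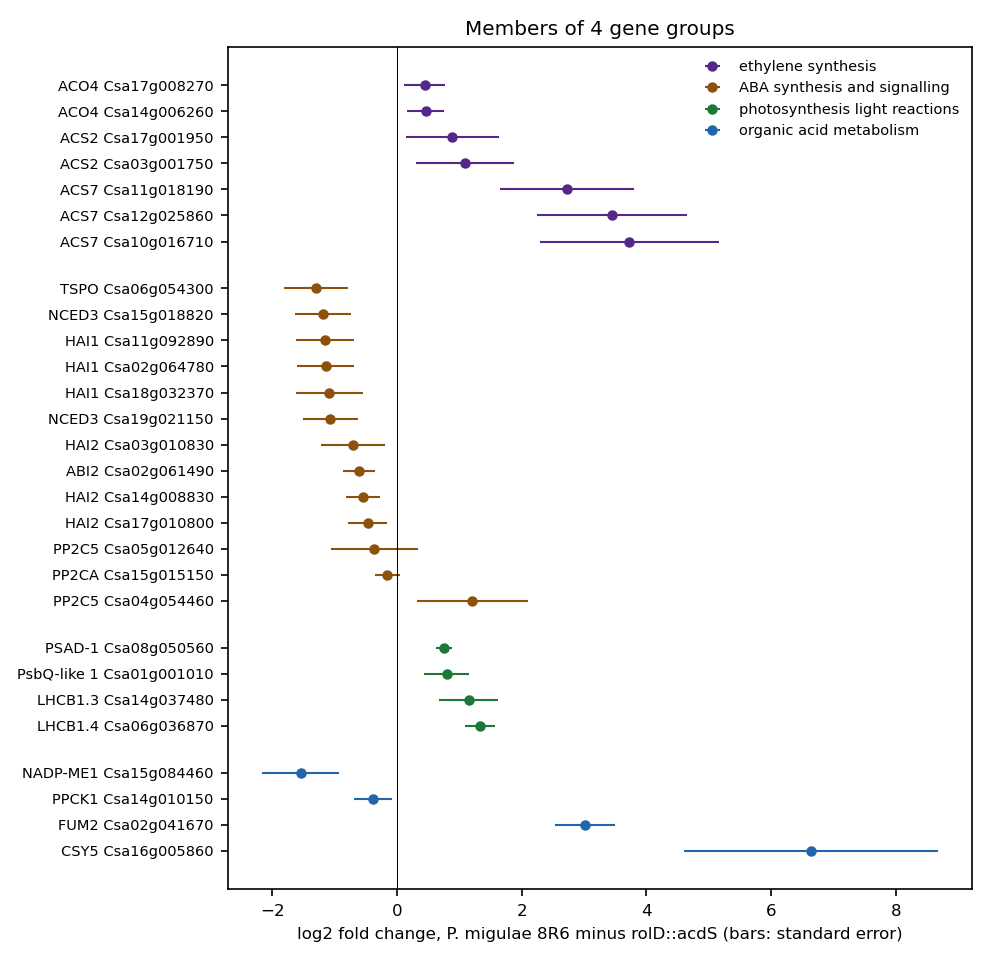
Log2 fold change of P. migulae 8R6 minus rolD::acdS with its standard error for each member of the ethylene synthesis, ABA, photosynthesis and organic acid groups, 1 point a gene. All 7 ethylene synthesis genes and all 4 photosynthesis genes lie above 0 and 12 of 13 ABA genes lie below it, and only fumarase 2, at 3.01, was called.

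The 4 listed genes of the photosynthetic light reactions were all higher with *P. migulae* 8R6, by 0.76 to 1.33 on the log2 scale. All 4 come from the *P. migulae* 8R6 list, and 3 of them are the green tissue markers given above. Csa08g050560 (PSAD-1, the ferredoxin-docking subunit of photosystem I) had 68.5, 75.9 and 73.4 CPM against 35.8, 49.6 and 43.2 CPM (log2 fold change 0.76 ± 0.13, adjusted p = 0.0504), with the control at 27.5 to 32.0 CPM. Csa06g036870 (LHCB1.4, a light-harvesting protein of photosystem II) had 30.3, 35.0 and 23.6 CPM against 11.5, 10.2 and 13.6 CPM (1.33 ± 0.24, adjusted p = 0.0559). Neither overlapped between groups, and neither passed the adjusted limit. Csa14g037480 (LHCB1.3) had 1.15 ± 0.47 and PsbQ-like 1 (Csa01g001010) 0.80 ± 0.36, the second with overlapping libraries.

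Beside fumarase 2, the organic acid genes were mixed. Csa16g005860 (CSY5, a citrate synthase) had 37, 7 and 1 counts with *P. migulae* 8R6 and 0 in each *rolD::acdS* library, at least 11.2-fold higher over the group, most of it from 1 library (adjusted p = 0.226). Csa15g084460 (NADP-ME1, a malic enzyme that decarboxylates malate) had 1.63, 1.81 and 0.292 CPM against 1.92, 3.28 and 6 CPM, a log2 fold change of -1.54 ± 0.62. PPCK1 (Csa14g010150), the kinase that activates PEP carboxylase, had -0.38 ± 0.31, with overlapping groups.

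Genes of desiccation and osmotic protection were the lowest group with *P. migulae* 8R6, although none passed the test. The 19 tested members were RD29B, the dehydrin RAB18 and late embryogenesis abundant proteins, which shield proteins and membranes in drying cells. Their median log2 fold change was -2.03, beside -1.14 over the whole *P. migulae* 8R6 list. An unadjusted p under 0.05 on the lower side was found in 15 of them, as in 22.6% of listed genes. DESeq2 called 6 of them lower, as it did 10.6% of listed genes. Csa02g045340 (RD29B) had 5.44, 7.49 and 3.26 CPM against 37.4, 27.6 and 29.1 CPM (log2 fold change -2.56 ± 0.44, adjusted p = 0.0507), with 13.8 to 33.4 CPM in the control. The other RD29B gene, Csa18g023200, had -2.53, a further CAP160 gene, Csa11g083980, had -2.71, and the RAB18 genes -1.17 to -1.32. The 4 members above 0 were 3 SAG21 genes and an NDR1/HIN1-like gene, all from the *rolD::acdS* list and known from senescence and defence. The other 15 are from the *P. migulae* 8R6 list, so the direction and rank of the group are not independent of how its members were chosen.

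Genes listed under the synthesis of raffinose, an osmoprotectant sugar, also had values below 0. The name of the group does not settle whether each enzyme makes raffinose or breaks it down. The 2 raffinose synthase genes and 2 seed imbibition 2 genes, all from the *P. migulae* 8R6 list, had -1.62 to -1.42, none called by edgeR and 4 by DESeq2, with 23.1, 21.0 and 13.5 CPM against 78.7, 48.7 and 41.5 CPM for Csa10g047220 (SIP1, adjusted p = 0.0937). Heat shock factors and chaperones were below 0 in 7 of 7 members, all from the *P. migulae* 8R6 list, and none was called. Their median was -0.86, beside -1.14 over that whole list. The smallest p was that of a DnaJ-domain protein, Csa09g072340, with 6.99, 4.97 and 2.38 CPM against 16.3, 12.8 and 15.4 CPM (adjusted p = 0.0994). Of 8 homeobox factors, 7 of them from the *P. migulae* 8R6 list, ATHB7 was called, and the 3 genes of its closest relative ATHB12 had -0.69 to -0.89. The homeobox group also holds the root marker WOX5 (-3.31 ± 0.70, adjusted p = 0.0909).

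Jasmonate genes had lower values with *P. migulae* 8R6 at both the synthesis and the turnover steps, and 1 of 18 was called. Lipoxygenase 3 (LOX3), allene oxide cyclase (AOC) and OPR3 act in sequence to make jasmonate. All 8 synthesis genes were below 0 (median -1.17, beside -1.14 over the whole *P. migulae* 8R6 list), and none was called. In 7 of them the groups did not overlap, as in 19.7% of listed genes on that side. Csa03g021200 (LOX3) had 6.73, 9.29 and 9.63 CPM against 24.7, 23.4 and 23.7 CPM, with 13.7 to 30.9 CPM in the control (log2 fold change -1.49 ± 0.26, adjusted p = 0.0505). The allene oxide cyclases had -1.40 to -2.34. CYP94B1, CYP94B3 and the amidohydrolases ILL6 and IAR3 break down or recycle JA-Ile. The study counts the ILL6 and IAR3 genes under auxin metabolism, as hydrolases of auxin conjugates, and they are grouped with jasmonate only here. All 10 turnover genes were below 0, from -2.30 to -1.13 with a median of -1.72, and the 1 called was CYP94B1 of Csa02g071910. DESeq2 called 3 of the synthesis and 7 of the turnover genes lower. The 18 genes all come from the *P. migulae* 8R6 list.

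Salicylate and defence genes leaned the other way and varied between libraries. ICS1 makes the salicylate precursor isochorismate, EDS5 exports it from the plastid, SARD1 and CBP60G switch ICS1 on, and ALD1 and FMO1 make the immune signal N-hydroxypipecolate. The 11 members tested were all above 0 (median 2.08, or 1.45 without *P. migulae* 8R6 replicate 2 and 1.32 by limma-voom), 9 with an unadjusted p under 0.05 and none called. All are from the *rolD::acdS* list. The median deviation of the group from its 12-library mean was 0.78, 0.70 and -0.61 in the *P. migulae* 8R6 libraries and -0.69, -0.85 and -0.89 in the *rolD::acdS* line. The third *P. migulae* 8R6 library thus lay close to the *rolD::acdS* line. In the control the same value was 0.84, 1.07 and 1.11.

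Csa07g046140 (ICS1) had 5.27, 7.16 and 5.21 CPM against 3.25, 2.65 and 2.66 CPM (log2 fold change 1.01 ± 0.25, adjusted p = 0.132). Csa04g042830 (WRKY70), a factor that couples salicylate to the repression of jasmonate responses, had 13.8, 29.4 and 14.5 CPM against 3.51, 4.11 and 4.72 CPM (2.24 ± 0.40, adjusted p = 0.0539). It had the smallest p of 24 WRKY genes, of which 22 were above 0 and none was called. The *rolD::acdS* list holds 21 of the 24, and the 2 below 0 are from the *P. migulae* 8R6 list. The median of the 24 was 0.78 (0.2 to 1.07 in the other settings), beside 1.16 over the whole *rolD::acdS* list. The PR proteins and chitinases were above 0 in 10 of 10 (median 1.24), all from the *rolD::acdS* list and none called. Csa07g046470 (PR5) had 53.9, 50.9 and 14.3 CPM against 19.1, 10.5 and 12.1 CPM (adjusted p = 0.161). Cysteine-rich (DUF26) and wall-associated receptor kinases were above 0 in 22 of 22 (median 1.2, beside 1.16 over the whole *rolD::acdS* list, which holds all 22), with none called and Csa13g048680 (a cysteine-rich kinase) as the lowest p, at 2.24 to 5.49 CPM against 1.38 to 1.97 CPM.

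Of 27 calcium signalling genes, all from the *rolD::acdS* list, 26 were above 0, yet the 1 called was the calreticulin Csa20g009740, which fell. The group shares its SARD1 and CBP60G genes with the salicylate group. Csa08g005200 (PBS3) is listed with the GH3 auxin-conjugating enzymes, but PBS3 conjugates glutamate to isochorismate on the way to salicylate. It had 20.6, 23.6 and 23.7 CPM against 9.84, 6.11 and 11 CPM (log2 fold change 1.33 ± 0.25, adjusted p = 0.0647), while the 4 other GH3 genes had 1.28 to 2.28 with larger errors. All 5 come from the *rolD::acdS* list.

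Cell wall genes made the largest group. Of 74 tested, 65 were above 0 with a median of 1.13, 41 had an unadjusted p under 0.05 on the higher side, 30 were higher without overlap, and BXL2 was the 1 called. DESeq2 called 16 higher and 2 lower. The study's *rolD::acdS* list, with a median of 1.16 over all its tested genes, holds 58 of the 74. They include xyloglucan endotransglucosylases and expansins, which loosen walls during growth. Csa10g012230 (xyloglucan endotransglucosylase 24) had 1.88 (adjusted p = 0.0519) and Csa11g015640 (expansin B3) 1.63 (adjusted p = 0.118), both chosen after their values were seen. The GASA genes, a family named for gibberellin whose members need not act alike, had 1.27 in both members. Csa07g046090 (GASA 6) had 1.94 to 2.48 CPM against 0.365 to 1.41 CPM (adjusted p = 0.176). Both come from the *P. migulae* 8R6 list, so their direction is not independent of how they were chosen. The 6 SAUR auxin-response genes had a median of 0.02 (-0.62 without *P. migulae* 8R6 replicate 1) and none had an unadjusted p under 0.05. The lowest p was that of Csa07g039520 (SAUR78), with 21.3, 4.39 and 4.57 CPM against 9.28, 4.29 and 4.43 CPM (adjusted p = 0.650). Csa11g090460 (CKX3, which degrades cytokinin) had 15, 1 and 2 counts against 0 in each *rolD::acdS* library, at least 4.5-fold higher over the group. It was not called (adjusted p = 0.245), and 15 of its 18 counts came from *P. migulae* 8R6 replicate 1, without which the 3 remaining counts are at the floor.

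**Figure D5:**
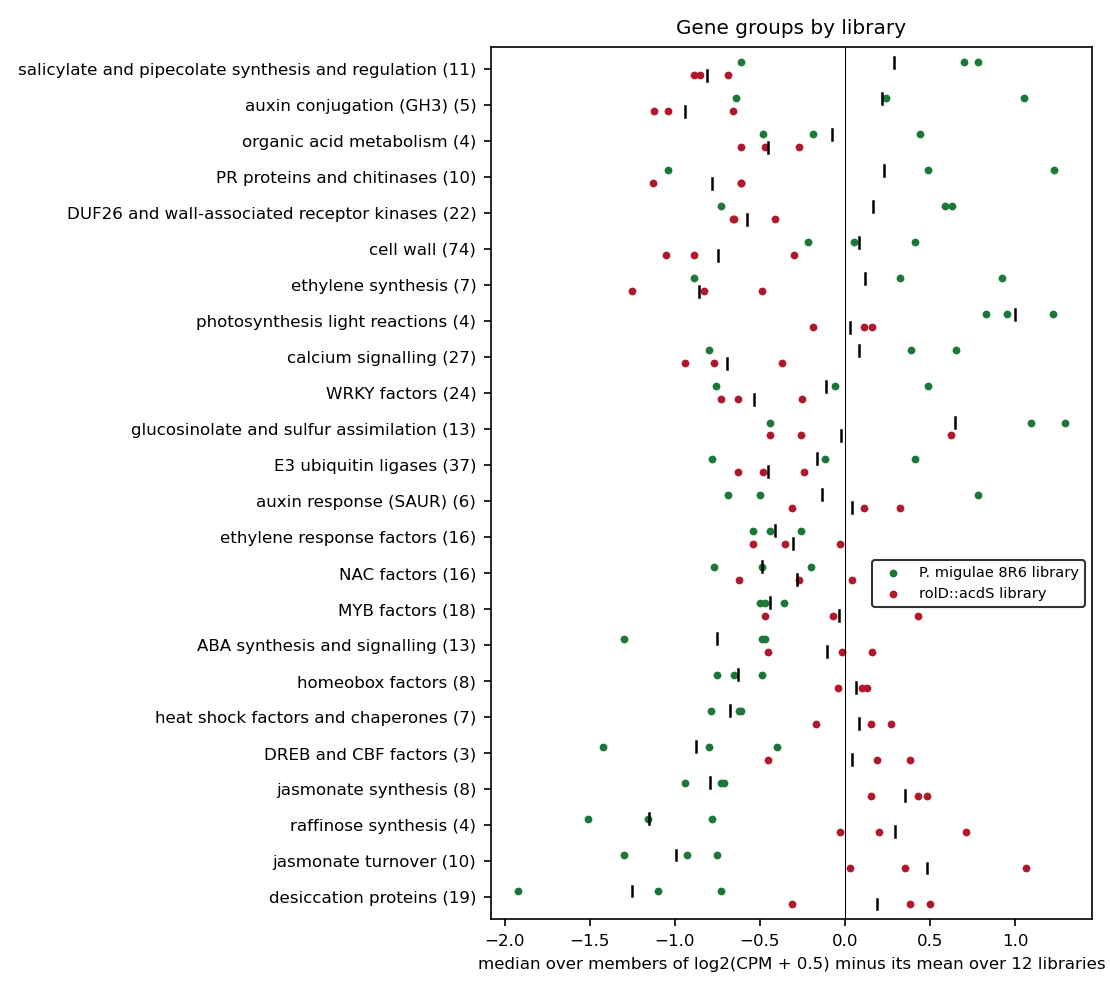
For each gene group with 3 or more members tested, the median over its members of log2(CPM + 0.5) minus the gene's mean over 12 libraries, in each P. migulae 8R6 (green) and rolD::acdS (red) library, with a bar at the group mean and the number of members in brackets. Members come from the study's lists. Desiccation genes lie lowest with P. migulae 8R6, and in the salicylate group 1 of its 3 libraries, at -0.61, lies near the rolD::acdS libraries.

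Among the other transcription factors, 16 NAC genes had a median of -0.21 and 18 MYB genes -0.45 (-1.21 under the filter of 2 CPM), with none called. Csa16g023660 (MYB20) had 0.986, 1.03 and 1.41 CPM against 3.12, 2.92 and 3.74 CPM (log2 fold change -1.5 ± 0.3, adjusted p = 0.0793), and Csa02g004650 (a NAC factor) had 1.22 ± 0.38 (adjusted p = 0.217). E3 ubiquitin ligases, which mark proteins for breakdown, were split, with 17 of 37 below 0. The *P. migulae* 8R6 list holds 14 of them and the *rolD::acdS* list 24. The 1 called was Csa17g035560, a RING/U-box protein, with 1.89, 1.68 and 1.36 CPM against 5.39, 5.20 and 5.71 CPM (log2 fold change -1.72 ± 0.25, adjusted p = 0.0429) and 4.65 to 7.99 CPM in the control.

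Glucosinolate and sulphur genes were above 0 in 13 of 13 (median 0.74), all from the *35S::acdS* list, with none called. Csa02g068380 (MYB28), the regulator of aliphatic glucosinolates, had 9.00, 31.1 and 30.4 CPM against 8.51, 7.03 and 16.2 CPM (adjusted p = 0.335). Myrosinase-binding proteins join the myrosinase that hydrolyses glucosinolates in complexes, and the gene for one of them, Csa20g044800, was also a target of the study's droplet PCR. It had 11, 30.1 and 40.6 CPM with *P. migulae* 8R6 and 155, 72.1 and 105 CPM in the *rolD::acdS* line, with no overlap, and 56.6 to 113 CPM in the control. The log2 fold change was -2.03 ± 0.51 and was not called (adjusted p = 0.138). Its primers and probe, as the study designed them, are shown because it had the largest difference of the droplet PCR targets tested. They are in lower case throughout and 5′ to 3′, and whether they match only this gene was not tested.
Csa20g044800 forward primer: gaatgcatcatatctgttggtggaag
Csa20g044800 reverse primer: gcgtccatggaatccaagaagctttcctc
Csa20g044800 probe: cagttctgatcaaatcgttgttcaaac
The other droplet PCR targets tested were Csa07g039380, at 57.6 to 123 CPM against 76.0 to 113 CPM (log2 fold change 0.02 ± 0.37), and Csa17g080380, at 6.28 to 15.6 CPM against 18.3 to 30.6 CPM (-1.09 ± 0.56, adjusted p = 0.449). Only the myrosinase-binding gene differed by more than 4-fold between group means of these 3.

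The called genes were spread over the genome. By the chromosome in their identifiers, all 20 chromosomes held at least 1 called gene, and the most were 5 on chromosome 20 (of 2565 tested, all lower) and 5 on chromosome 11 (of 4525 tested, 4 lower and 1 higher).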

How the data were processed

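Whole-shoot RNA of 12 plant samples had been sequenced by the study from TruSeq libraries. Per the labels and methods, the authors trimmed reads with Trimmomatic, mapped them with STAR to the *C. sativa* genome and counted them per gene; the counter, its strand setting and its treatment of reads shared by homeologues are not given in the sources used here. The deposited values are whole-number counts that are not divided by library size, although the table is named for CPM. Groups came from the sample titles. The members and gene lists were chosen with earlier results of these data known.

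Genes with 0.5 CPM or more in at least 3 of 12 libraries were tested. Counts were scaled by TMM and fitted in 1 model of 4 groups without covariates with edgeR 4.0.16 (R 4.3.3; common BCV 0.189), and the contrast of *P. migulae* 8R6 minus *rolD::acdS* was tested by quasi-likelihood. CPM in the text use TMM library sizes. The SE is the absolute log2 fold change over the square root of F. Replicates are 3 per group, biological by the methods, and an exact permutation of 3 against 3 cannot go below 0.1. Intervals and floors cover counting error only. Named genes were, in each direction, the 12 listed and called genes with the largest change and no overlap (filled to 8 by smallest p where fewer than 5 were called), at most 2 unlisted ones, the member of each of 26 groups with the smallest p, every member of 4 groups, and the droplet PCR targets; other members named in the text were picked after their values were seen. Names came from the annotation columns of 3 supplementary lists (1231 genes; the *rolD::acdS* list was read in part); their fold changes and FDR values were not used. None of the identifiers was found in the RefSeq table (0 matches), and coordinates were not used here.

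On simulated data for this contrast (56932 genes, 200 changed), the test called 70 of 100 genes changed by 1.5 on the log2 scale, 89 of 100 changed by 2.5, 5 unchanged genes, and 0 in a set without change. Each simulated gene was drawn independently with its fitted gene-wise dispersion. Shifts that many genes of a library share were thus absent, and these rates need not hold for the real libraries. Alternatives were RLE scaling, other filters, the 6 libraries alone, a replicate block, DESeq2 1.42.0, limma-voom (limma 3.58.1), edgeR exact tests, thinned counts and leaving out each library.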

Additional observations from a re-analysis of the deposited data

How the results depend on the processing

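The count of called genes moved with the setting, while the called genes that were tested kept their direction in each (39 of the 43 were tested under the filter of 2 CPM). Against 8 higher and 35 lower genes, no filter gave 43 and 104, the 6 libraries alone 3 and 19, DESeq2 189 and 279, limma-voom 0 and 4 (6994 genes under 0.05 before adjustment), edgeR's exact test 255 and 297 with gene-wise dispersions, 0 and 0 with a BCV of 2 (0 under 0.05 before adjustment) and 820 and 932 with a BCV of 0.2, and counts thinned to 10520627 a library 0 and 0 (edgeR's quasi-likelihood test, 6902 under 0.05 before adjustment, smallest adjusted p 0.0513). Leaving out 1 library gave between 0 and 43 higher and between 0 and 114 lower genes. RLE scaling (6 and 34) and a filter of 2 CPM (7 and 30) changed little. With the replicate block the counts were 10 and 37, and 26 of the 43 genes were called. Same-numbered libraries correlated in their deviations from group means at 0.319, 0.067 and 0.173, not all over 0.1, so the numbers were not taken as pairs; each *P. migulae* 8R6 library correlated best with its own number. Of the named genes, 4 changed sign, none of them called. Csa07g039380 went from 0.02 to -0.03 with the replicate block, -0.03 with limma-voom and between -0.26 and -0.06 without *P. migulae* 8R6 replicate 3 or *rolD::acdS* replicate 1 or 2 (-0.09 for the last), Csa07g039520 to -0.48 and Csa04g054460 to -0.01 without *P. migulae* 8R6 replicate 1, and Csa05g012640 to 0.19 without *rolD::acdS* replicate 1. With 1 library left out these 4 genes ranged from -0.26 to 0.26, from -0.48 to 1.22, from -0.01 to 1.79 and from -0.95 to 0.19. The cause was not tested. Fewer than 4 counts a group leave folds such as that of Csa20g056010 known only within wide intervals.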

Other observations

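Among the droplet PCR targets below the filter, Csa09g083890 had 0, 166 and 290 counts in the control libraries, 4, 5 and 4 with *P. migulae* 8R6 and 2, 0 and 5 in the *rolD::acdS* line. Csa09g064270 had 24, 1 and 1 counts with *P. migulae* 8R6, 0 in each *rolD::acdS* library and 6, 4 and 67 in the control. Csa07g015450 had 3, 1 and 0 counts against 2, 0 and 0. In the first pair, most counts of a group came from 1 or 2 of its libraries.

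The first principal component of log2(CPM + 0.5) held 33.8% of the variance and did not follow the groups, with -10.3, 53.2 and 76.9 for *P. migulae* 8R6 and -10.8, 16.8 and 23.1 for the *rolD::acdS* line. The second held 17.9%, with 37.4, 45.3 and -13.6 against -21.6, -67.3 and -46.4.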
